A study of Mus musculus with 6 samples.

Results

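Transcripts of 10 genes that move calcium into and out of the endoplasmic reticulum, or act at once on that calcium, were followed in mouse pancreatic islets with and without the short-chain fatty acid receptor gene Ffar3. The genes were chosen by symbol: the inositol trisphosphate (IP3) receptor genes Itpr1, Itpr2 and Itpr3, the ryanodine receptor gene Ryr2, the pump genes Atp2a2, Atp2a3 and Atp2b1, the store-operated entry genes Stim1 and Orai1, and the cation channel gene Trpm5. Each was found on 1 row, 10 of 22923 distinct symbols in the tables. Wild-type (WT) or Ffar3-/- (KO) mice gave the islets, all males of the C57BL/6J strain and 10 to 14 weeks old, with 3 libraries of total RNA per group and islets of 2 pancreata pooled in each library. The replicates are described as biological, and how the Ffar3 allele was made, and in which cells it is lost, is not given in the sources used here. Values are FPKM, fragments scaled to transcript length and by a factor per library, so that levels of different genes can be set side by side within a library. Differences are KO minus WT on the scale of log2(FPKM + 1), which understates changes of low values, and a gene was said to rise or fall where limma gave an adjusted p under 0.05.

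In islet cells the endoplasmic reticulum is a calcium store that is filled by SERCA pumps and emptied through IP3 receptors and ryanodine receptors. When the store runs low, the membrane sensor STIM1 moves to the plasma membrane and opens ORAI channels, which let calcium in from outside, while plasma membrane pumps push calcium out of the cell. In beta cells these fluxes shape the calcium signal that drives insulin secretion, and TRPM5, a monovalent cation channel opened by a rise in cytosolic calcium, depolarises the cell. TRPM5 is thus a channel that reads the calcium signal, not one that sits on the store.

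Of the 10 genes, 9 had a mean of at least 1 FPKM and were tested. Atp2b1 and Orai1 rose, Itpr3 and Trpm5 fell, and the other 5 did not pass. The count of 4 in 9 is to be read beside the 39.9% of 11669 tested rows that passed (20.3% higher, 19.6% lower), a share near that of these genes. With the sums of all genes outside the 20 acinar ones made equal between libraries, a scaling that moved the median of all tested rows to -0.17, the split of all rows changed from 2368 higher and 2289 lower to 634 higher and 1332 lower. For 6 of the 10 genes all 3 KO libraries lay on one side of all 3 WT libraries, where 56.3% of tested rows did so: 3 genes lower (28.5% of rows) and 3 higher (27.8%). The median difference of the 9 tested genes was -0.1, beside -0.01 over all tested rows. An exact two-sided permutation test of a single gene cannot go below p = 0.1 with 3 against 3 libraries.

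The libraries differed in ways that touch every result below. Ffar3 was at 4.69 to 6.68 FPKM in WT; its KO values were 0, 0 and 0.105. The summed FPKM of 20 acinar genes, which mark the digestive enzyme cells around the islets, was 25150 to 39403 in WT, and in KO it was 23683 (replicate 1), 237327 (replicate 2) and 505498 (replicate 3). All 20 of them had a mean of at least 1 FPKM, and Amy2a5 and Amy2b were listed at 0 in some libraries. Immune marker genes (7 in the list) summed to 22.1 to 23.5 FPKM in WT and to 59.6, 144.0 and 23.4 FPKM in KO replicates 1, 2 and 3, with Cd3e listed at 0 in every WT library. Duct marker genes (7 in the list) summed to 162.0 to 175.0 FPKM in WT and to 174.0, 223.0 and 229.0 in KO replicates 1, 2 and 3. Islet cell markers called lower in KO numbered 4 of the 11 tested for beta cells, 3 of 7 for alpha cells and 1 of 3 for delta cells. For PP cells they numbered 0 of 2, and 0 islet cell markers were called higher. Of all tested rows, 19.6% were lower and 20.3% higher, and no list was tested against these shares. Mafa, a beta cell transcription factor gene, was at 197.0 to 213.0 FPKM in WT against 101.0, 63.4 and 44.7 in KO, while Iapp was at 34745 to 36606 against 33357, 27415 and 30945. Gcg, the alpha cell hormone gene, was at 18617 to 22807 against 12436, 8534 and 6474, and Sst, that of delta cells, at 4993 to 5254 against 4539, 2668 and 2522. Ins2 was listed at 0 throughout. Ins1 was listed at 0 in every WT library and KO replicate 1, but at 43721 and 48334 FPKM in KO replicates 2 and 3. The part of these marker differences in the results below was not tested. In such bulk RNA, fewer cells of a type and less RNA per cell cannot be told apart. Total read depth is unknown, so a low FPKM cannot be turned into fragments. In KO replicate 1 the summed acinar transcripts were below every WT library. For the genes among the 10 that passed, the difference is therefore given also in 2 other settings. These are KO replicate 1 alone against WT, and the mean acinar level as a covariate. Both are plotted for every tested gene of the 10, but not printed for each. The first takes a single library to vary like the WT libraries, and the second leans on that same library, so they are not separate checks. They called 26.1% and 24.4% of tested rows. For the other settings run, the share called was 39.9% with median-of-ratios factors, 41.4% with quantile normalization, 16.9% with equal non-acinar sums and 20.9% when the insulin genes were left out of them too, 40.6% with a pseudocount of 0.1, 24.7% with no filter, 43.6% from 5 FPKM up, 40.0% with a robust prior, 46.9% with array weights and 33.1% with a replicate block. It was 21.3%, 27.8% and 21.5% without WT replicate 1, 2 and 3, and 49.1%, 29.7% and 35.3% without KO replicate 1, 2 and 3.

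The stretches just upstream of the start sites of the 4 genes that passed are shown so that the windows of the genes that rose can be set beside those of the genes that fell. They are the 250 bases before a RefSeq start site on GRCm38.p6, the assembly of mm10, read 5′ to 3′ on the strand of the gene. Capitals mark the GC box GGGCGG (or CCGCCC on the other strand) and the core TGACG (or CGTCA) of cyclic AMP response elements. For Atp2b1 the downstream one of 2 listed start sites is shown. The windows are chr10:98914902-98915151 on the plus strand (Atp2b1), chr5:123014824-123015073 on the plus strand (Orai1), chr17:27057054-27057303 on the plus strand (Itpr3) and chr7:143094643-143094892 on the minus strand (Trpm5).
Atp2b1: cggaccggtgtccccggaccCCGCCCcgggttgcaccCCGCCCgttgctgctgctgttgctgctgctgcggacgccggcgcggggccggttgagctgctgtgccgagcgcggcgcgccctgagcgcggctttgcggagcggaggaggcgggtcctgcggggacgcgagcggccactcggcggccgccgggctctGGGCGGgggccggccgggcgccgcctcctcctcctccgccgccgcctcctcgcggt
Orai1: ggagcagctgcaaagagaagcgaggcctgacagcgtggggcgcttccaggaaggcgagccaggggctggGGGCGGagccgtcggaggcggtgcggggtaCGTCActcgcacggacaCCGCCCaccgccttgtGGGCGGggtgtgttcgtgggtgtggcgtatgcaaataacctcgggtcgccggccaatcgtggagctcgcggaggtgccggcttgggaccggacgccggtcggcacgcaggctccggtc
Itpr3: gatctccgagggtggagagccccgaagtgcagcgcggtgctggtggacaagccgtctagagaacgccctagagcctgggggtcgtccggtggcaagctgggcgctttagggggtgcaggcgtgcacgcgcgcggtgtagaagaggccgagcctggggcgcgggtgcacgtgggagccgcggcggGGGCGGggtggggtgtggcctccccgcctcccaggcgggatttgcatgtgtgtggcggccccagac
Trpm5: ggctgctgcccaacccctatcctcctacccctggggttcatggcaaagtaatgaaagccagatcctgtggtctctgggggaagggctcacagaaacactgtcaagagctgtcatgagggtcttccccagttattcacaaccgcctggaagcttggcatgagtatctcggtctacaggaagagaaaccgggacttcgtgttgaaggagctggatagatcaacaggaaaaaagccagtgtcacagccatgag

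The windows of the 2 genes that rose were rich in CpG pairs, with 41 in Atp2b1 and 30 in Orai1, and that of Itpr3, which fell, held 25. Trpm5 had 4, where the median of 32851 RefSeq windows was 6. GGGCGG occurred 3 times in Atp2b1, 3 times in Orai1, once in Itpr3 and not at all in Trpm5, and in 32.7% of all windows at least once. TGACG occurred only in Orai1 among these 4, and in 17.8% of all windows. The full element TGACGTCA, found in 1.55% of all windows, was in none of the 4, nor was TGACTCA (4.46%) or TATAAA (12.4%). CACGTG was in Itpr3 and in 6.02% of all windows. In these 4 windows both counts were higher in the genes that rose than in those that fell, a description of 4 genes with no test. The windows of genes that did not pass were not set apart from them. GGGCGG occurred 8 times in Stim1, 5 times in Atp2a3 and 4 times in Itpr2, with 31, 20 and 22 CpG pairs. Stim1 also held TGACG. The window of Ryr2, which was not tested, had 14 CpG pairs and no GGGCGG. A match is a string of letters, not a shown binding site.

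In order of their WT level, the pumps of the store stood far above its channels. Atp2a2 had the highest mean at 446.0 FPKM, above 99.1% of tested rows, followed by Atp2a3 at 234.0, Stim1 at 33.0 and Trpm5 at 32.4. Then came Atp2b1 at about 20, Itpr1 and Itpr3 both at 10.4, Orai1 at 3.10 and Itpr2 at 2.40. Ryr2 came last at 0.00803 FPKM. Among neighbours in this order, the WT ranges of Stim1 and Trpm5 overlapped, as did those of Itpr3 and Itpr1. In KO, Atp2b1 stood above Trpm5, and the order of means was otherwise the same. The KO ranges of Atp2b1 and Trpm5 overlapped, as did those of Itpr1 and Itpr3 and of Stim1 and Atp2b1. The plot of FPKM by library shows all 10 genes.

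**Figure D1:**
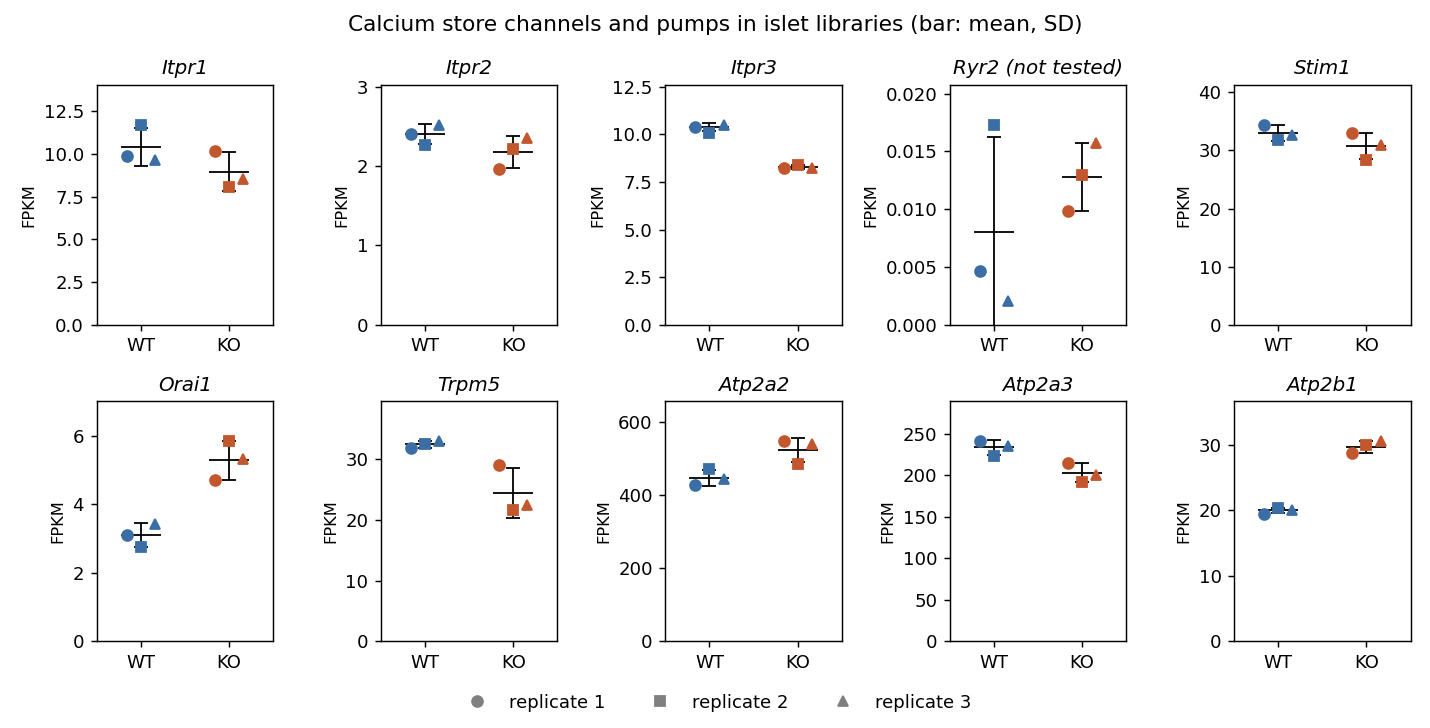
FPKM (vertical axis, linear, from 0) of the 10 genes in the WT (blue) and KO (orange) libraries, with a marker shape per replicate number and black bars for the mean and SD of 3 libraries. Atp2b1 and Orai1 were higher and Itpr3 and Trpm5 lower in all KO libraries, while Itpr1, Itpr2, Stim1 and Ryr2 overlapped between the groups.

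Release channels came first in the path of calcium out of the store. Itpr3 (chr17:27057304-27122223), the IP3 receptor isoform long described in endocrine and exocrine secretory cells, was at 10.4, 10.1 and 10.5 FPKM in WT and at 8.23, 8.40 and 8.24 FPKM in KO (libraries are always given in replicate order). The groups did not overlap, and the KO libraries lay close together. Their acinar sums ran from 23683 to 505498 FPKM, and the part of acinar RNA in the Itpr3 difference was not tested. Itpr3 fell by 0.29 on the log2 scale (SE 0.05, 95% interval -0.42 to -0.17, adjusted p = 0.0064), with means of 10.4 ± 0.218 FPKM in WT against 8.29 ± 0.0934 in KO (SD, n = 3 each, limma), a change of -20.1%. It was at -0.30 in KO replicate 1 alone (adjusted p = 0.032) and -0.30 with the acinar covariate (0.024). Its call held under all 18 alternatives run, among them leaving out each library (adjusted p of 0.008 to 0.038). It held only narrowly with equal non-acinar sums (0.0498) and with the insulin genes left out of them too (0.045). An antisense transcript annotated in GENCODE M21, Itpr3os, shares 233 exonic bases with Itpr3, and whether the deposited values used strand is not given in the sources used here.

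Itpr1 (chr6:108213096-108551109), the isoform best known from the brain, was at 9.90, 11.7 and 9.64 FPKM in WT and 10.2, 8.07 and 8.55 FPKM in KO. KO replicate 1 lay inside the WT range and the acinar-rich KO replicates 2 and 3 below it. The difference was -0.20 (95% interval -0.45 to 0.05, adjusted p = 0.16), and -0.02 in KO replicate 1 alone. Without KO replicate 1 it was -0.29 and passed (adjusted p = 0.039). Itpr2 (chr6:146108299-146502223), the third isoform, was at 2.40, 2.27 and 2.52 FPKM in WT and 1.96, 2.22 and 2.35 in KO, with overlapping groups and a difference of -0.10 (95% interval -0.30 to 0.11, adjusted p = 0.39).

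Summed over the 3 isoforms, IP3 receptor FPKM was 22.7, 24.1 and 22.7 in WT and 20.4, 18.7 and 19.1 in KO. Every KO library was below every WT library (exact two-sided permutation p = 0.1, the smallest possible). The mix of isoforms was not shown to change: Itpr3 took 44.8% ± 2.38 of the sum in WT and 42.8% ± 2.35 in KO (SD, n = 3 per group, exact permutation p = 0.3), and Itpr1 took 44.8% ± 3.22 and 46.0% ± 3.67 (exact permutation p = 0.6). That Itpr3 passed and Itpr1 did not is therefore no evidence that they differed in response.

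Ryanodine receptor transcripts were close to the bottom of the tables. Ryr2 (chr13:11553102-12106945), the cardiac isoform that has also been described in beta cells, was at 0.00469, 0.0173 and 0.00205 FPKM in WT and 0.00981, 0.013 and 0.0157 in KO. The smallest values above 0 in these libraries were 0.000371 to 0.00262 FPKM, and the groups overlapped, so Ryr2 was listed above 0 but no difference could be assessed. Ryr1 was at most 0.015 FPKM and Ryr3 at most 0.0469 FPKM in any library, so in every library each IP3 receptor gene stood above each ryanodine receptor gene per length.

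Among the pumps that load the store, neither of the 2 SERCA genes passed the test, and their differences had opposite signs. Atp2a2 (chr5:122453513-122502225), which encodes the widely expressed SERCA2, was at 426.0, 470.0 and 443.0 FPKM in WT and at 546.0, 485.0 and 538.0 FPKM in KO. All KO libraries were above all WT libraries, with KO replicate 2 closest to them. The mean was 446.0 ± 22.2 in WT and 523.0 ± 32.8 in KO (SD, n = 3), and the difference of 0.23 (SE 0.09, 95% interval 0.01 to 0.45) did not pass in limma (adjusted p = 0.09). In KO replicate 1 alone, the KO library with the lowest acinar level and the highest Atp2a2, the difference was 0.29 and passed (adjusted p = 0.044). Under equal non-acinar sums it was 0.04 (adjusted p = 0.86).

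Atp2a3 (chr11:72961169-72993044), which encodes SERCA3, the lower-affinity pump found in beta cells, was at 241.0, 223.0 and 236.0 FPKM in WT and 215.0, 192.0 and 201.0 in KO. The groups did not overlap, and the difference of -0.20 (SE 0.07, 95% interval -0.38 to -0.03) did not pass (adjusted p = 0.065). It was -0.12 in KO replicate 1 alone (0.25), and passed without KO replicate 1 (-0.25, adjusted p = 0.023) and with array weights (-0.23, 0.032).

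Set against each other within a library, which removes any scaling between libraries, the pair separated more plainly. Atp2a2 made up 63.9%, 67.8% and 65.2% of the SERCA sum in WT and 71.7%, 71.6% and 72.8% in KO. The KO libraries were all higher and lay close together, KO replicate 1 among them. The mean went from 65.6% ± 2.0 to 72.1% ± 0.625 (SD, n = 3 per group, exact two-sided permutation p = 0.1, the smallest possible), a difference of 6.42 percentage points that stayed between 5.55 and 7.51 when any 1 library was left out. The ratio of Atp2a2 to Atp2a3 was 1.92 ± 0.173 in WT and 2.58 ± 0.0811 in KO. The SERCA sum itself, 680.0 ± 13.1 FPKM in WT and 726.0 ± 43.2 in KO, overlapped between the groups (exact permutation p = 0.3). The KO share was 71.7% in the library with the lowest acinar level and 71.6% and 72.8% in the 2 acinar-rich ones. The part of acinar RNA or islet cell makeup in this difference was not tested.

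**Figure D2:**
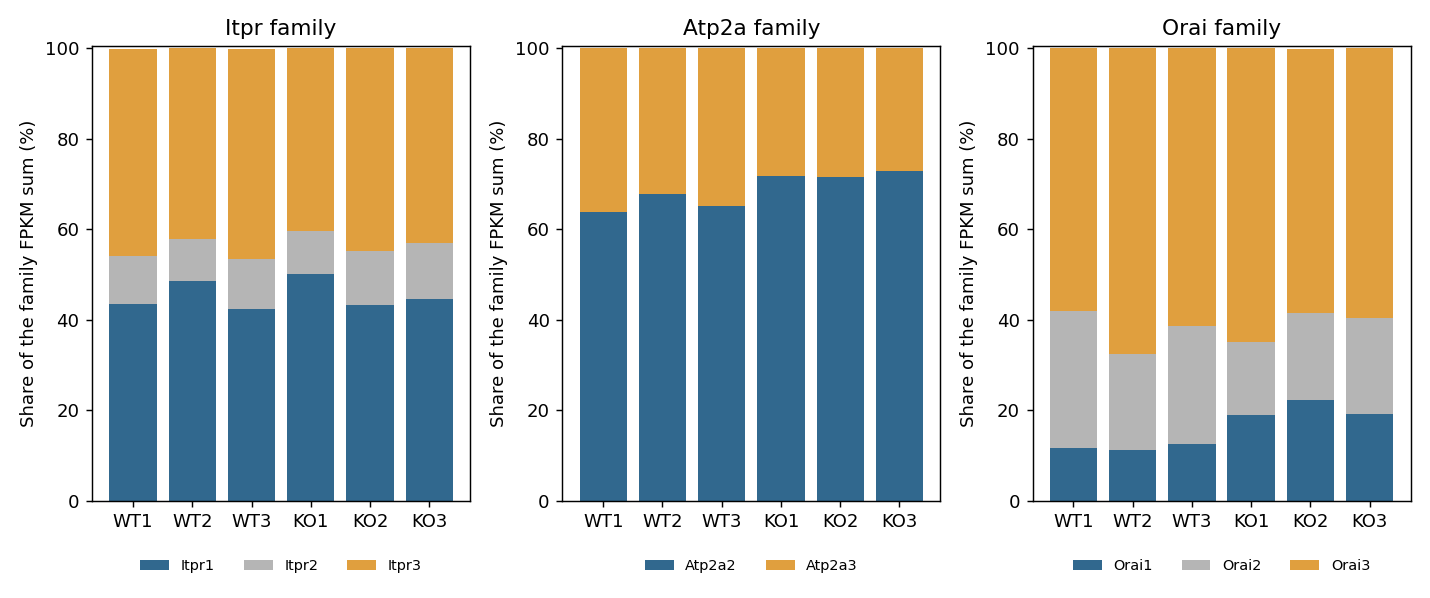
Share (%) of the summed FPKM of the Itpr, Atp2a (2 SERCA genes) and Orai families taken by each member, as stacked bars for each of the 6 libraries. The Atp2a2 share was 71.6% to 72.8% in KO against 63.9% to 67.8% in WT and the Orai1 share 19.0% to 22.2% against 11.2% to 12.5%, while the Itpr shares overlapped.

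The plasma membrane pump gene Atp2b1 (chr10:98914406-99026143), which encodes PMCA1, the housekeeping form that expels calcium from the cell, rose, with every KO library above every WT library. It was at 19.5, 20.3 and 20.1 FPKM in WT and at 28.7, 29.9 and 30.5 FPKM in KO. The gap between the groups was many times the spread within either. The KO mean of 29.7 ± 0.906 FPKM (SD, n = 3 in each group) was 48.4% above the WT mean, with a log2 difference of 0.55 (SE 0.05, 95% interval 0.43 to 0.67, limma adjusted p = 0.00075). It was 0.50 in KO replicate 1 alone (adjusted p = 0.0047) and 0.51 with the acinar covariate (0.003). Among the 18 alternatives, 1 lost the call: scaling to equal non-acinar sums gave 0.37 (adjusted p = 0.087). With the insulin genes left out of those sums too, the difference was 0.46 (adjusted p = 0.02).

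In store-operated entry, the channel gene Orai1 rose and the sensor gene Stim1 did not pass the test. Stim1 (chr7:102267806-102437319), the store sensor, was at 34.4, 31.8 and 32.7 FPKM in WT and 33.0, 28.4 and 30.9 in KO. The groups overlapped, and the difference was -0.10 (95% interval -0.26 to 0.06, adjusted p = 0.27). Stim1 lies 71.4 Mb from Ffar3 on the same chromosome, and Trpm5 112.2 Mb from it.

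Orai1 (chr5:123015074-123030456), the pore subunit that STIM1 opens, was at 3.10, 2.76 and 3.43 FPKM in WT and 4.71, 5.83 and 5.32 FPKM in KO. The lowest KO library was above the highest WT library. Orai1 rose from 3.10 ± 0.336 to 5.28 ± 0.562 FPKM (SD, n = 3 per group; log2 difference 0.62, SE 0.10, 95% interval 0.38 to 0.85, limma adjusted p = 0.0044), 1.71 times the WT mean. Its call held under the 17 alternatives in which it was tested, with 0.48 in KO replicate 1 alone (adjusted p = 0.031) and 0.53 with the acinar covariate (0.02). Immune marker transcripts summed to 22.1 to 23.5 FPKM in WT and to 59.6, 144.0 and 23.4 FPKM in the KO libraries, where Orai1 was 4.71, 5.83 and 5.32. The part of immune RNA in the Orai1 rise was not tested.

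The summed level of the family overlapped between the groups. Orai1, Orai2 and Orai3 together came to 26.2 ± 1.40 FPKM in WT and 26.2 ± 1.45 in KO (SD, n = 3). Orai1 made up 11.7%, 11.2% and 12.5% of this sum in WT and 19.0%, 22.2% and 19.2% in KO, a difference of 8.35 percentage points with no overlap (exact permutation p = 0.1, the smallest possible). Orai3, the most abundant of the family, was at 16.3 ± 0.854 and 16.0 ± 0.570 FPKM. Orai2 stood at 7.98, 5.24 and 7.15 FPKM in WT, against 3.97, 5.05 and 5.87 (difference of -0.38, adjusted p = 0.1). Relative to Stim1, Orai1 went from 0.0939 ± 0.00975 to 0.173 ± 0.0312 (exact permutation p = 0.1).

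Trpm5 (chr7:143069153-143094642), the calcium-activated cation channel, was at 31.9, 32.4 and 32.9 FPKM in WT, and at 29.0, 21.6 and 22.4 FPKM in KO. All KO libraries were below WT, but KO replicate 1 sat nearer to WT than to the acinar-rich KO libraries. The mean fell from 32.4 ± 0.509 to 24.4 ± 4.07 FPKM (SD, n = 3 per group; log2 difference -0.41, SE 0.11, 95% interval -0.66 to -0.16, limma adjusted p = 0.023). The call was lost in KO replicate 1 alone (-0.15, adjusted p = 0.1), with the acinar covariate (-0.22, 0.076), under both equal-sum scalings (0.062 and 0.064), and without WT replicate 1, 2 or 3 (0.07, 0.066 and 0.079) or KO replicate 2 or 3 (0.065 and 0.057). Without KO replicate 1 it was -0.54 (adjusted p = 0.00076). Mafa and Gcg were also lowest in KO replicates 2 and 3, and the part of acinar RNA or islet cell makeup in this fall was not tested beyond these values. Tuft cell genes, which mark another Trpm5-expressing cell, were at 1.24 to 1.96 FPKM summed over 6 genes, with Il25 listed at 0 everywhere. Tssc4, on the opposite strand, shares 220 exonic bases with Trpm5 and fell too, with means of 50.9 and 37.5 FPKM (difference of -0.43, adjusted p = 0.0054).

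**Figure D3:**
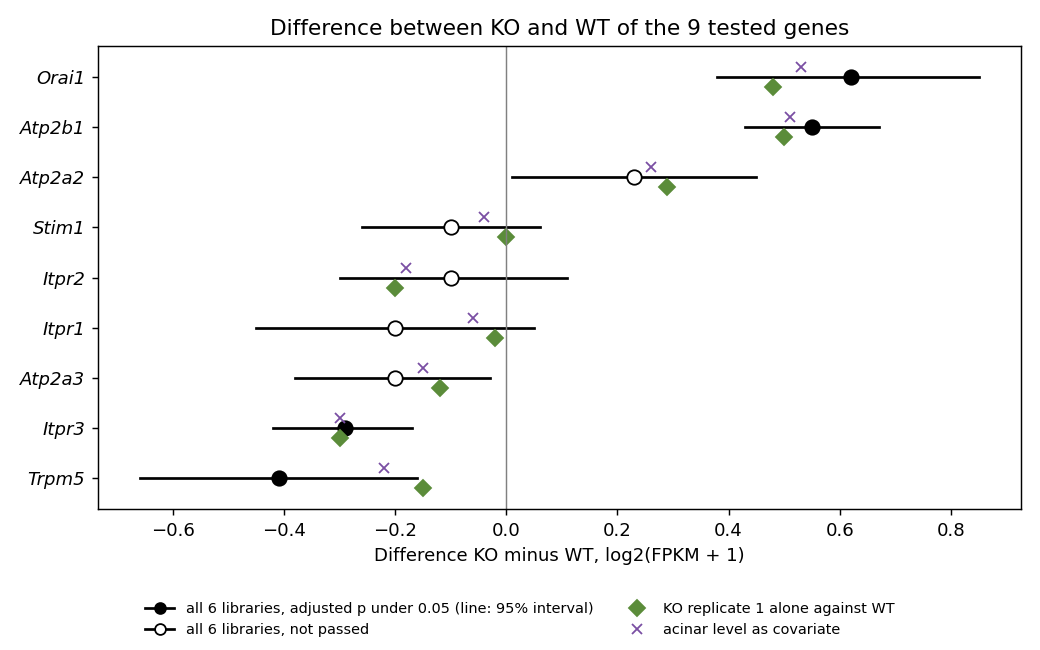
Difference between KO and WT on the log2(FPKM + 1) scale (horizontal axis) for the 9 tested genes, as circles with 95% intervals (filled where adjusted p was under 0.05), with diamonds for KO replicate 1 alone against WT and crosses for the fit with the acinar level as a covariate. Orai1 (0.62), Atp2b1 (0.55) and Itpr3 (-0.29) had all 3 values on one side and close together, whereas Trpm5 went from -0.41 to -0.15 in KO replicate 1 alone.

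Plotted against the acinar level of each library, the genes fell into unlike patterns. The mean log2(FPKM + 1) of the 20 acinar genes was 8.36 to 8.56 in WT, and 8.11, 10.5 and 11.4 in the KO libraries. Atp2b1, Orai1 and Itpr3 in KO replicate 1 were already near their values in the other KO libraries. Trpm5 and Itpr1 in KO replicate 1 were near or inside the WT range.

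**Figure D4:**
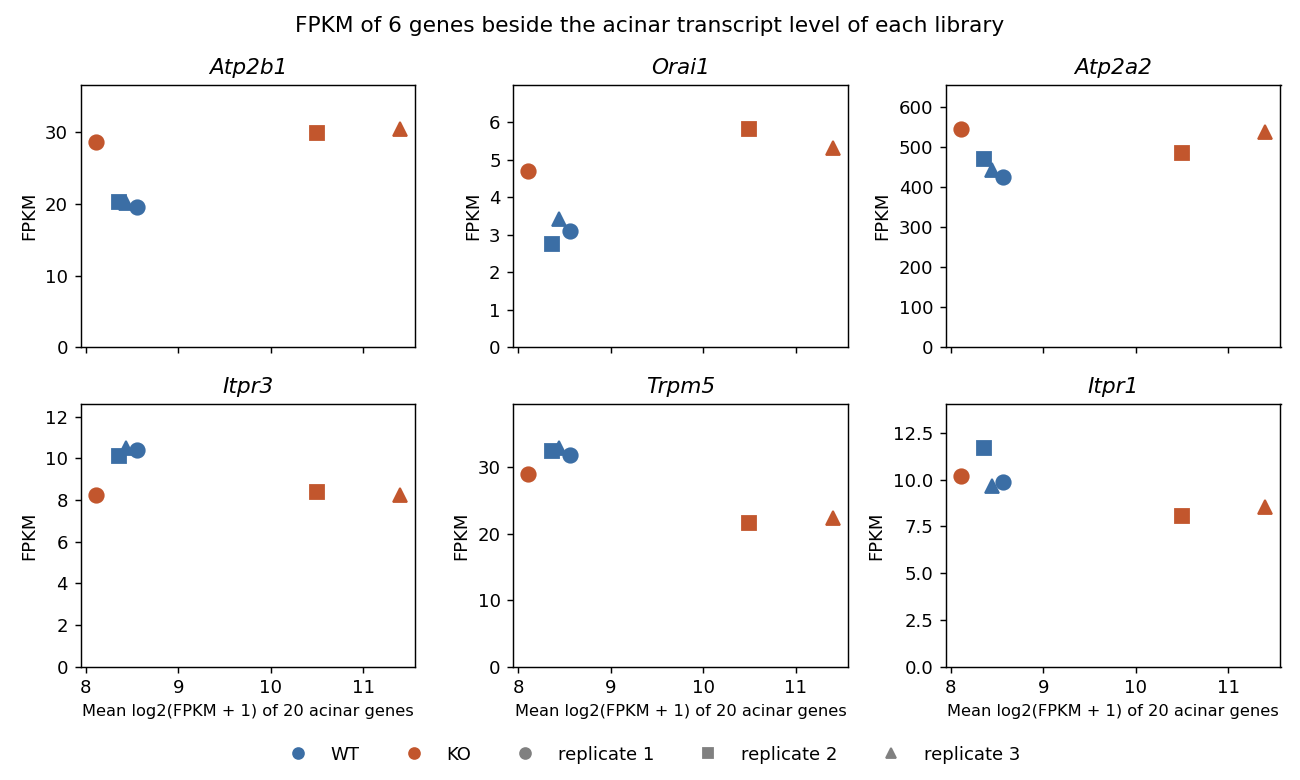
FPKM (vertical axis, linear, from 0) of 6 genes against the mean log2(FPKM + 1) of 20 acinar genes (horizontal axis) in the WT (blue) and KO (orange) libraries, with a marker shape per replicate number. KO replicate 1, at an acinar level of 8.11, had 28.7 FPKM of Atp2b1 and 8.23 FPKM of Itpr3, close to the KO replicates at 10.5 and 11.4, but 29.0 FPKM of Trpm5 against 21.6 and 22.4.

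The rest of the calcium store pathway was read from lists of 106 genes by role, of which 75 were tested. Over all lists 16 fell and 10 rose, 34.7% called against 39.9% of all tested rows, with a median difference of -0.06. The counts moved by more than 1.5 times with single libraries left out (5 to 21 lower, 3 to 10 higher), and in KO replicate 1 alone they were 6 lower and 6 higher.

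The list around IP3, the messenger that opens the IP3 receptors, also held receptor, G protein and later inositol phosphate genes. It made up 9 of the 16 falls, with 9 of 17 tested lower and 1 higher. That was 58.8% called against 39.9% of all tested rows, 19.6% of which were lower, with a median of -0.21 against -0.01, and nothing particular to the list was tested. The phospholipase C gene Plch1 fell to 1.39 ± 0.157 FPKM, against 2.76 ± 0.0864 in WT (-0.66, adjusted p = 0.0024), and Plcg1, which acts behind receptor tyrosine kinases, from 7.22 ± 0.391 to 5.59 ± 0.204 (-0.32, 0.0099; not called without WT replicate 3, adjusted p = 0.052). The IP3 kinase gene Itpkb, whose product removes IP3 by phosphorylating it, fell from 44.7 ± 1.15 to 32.4 ± 2.49 (-0.45, 0.0033). The genes that fell thus included both makers and removers of IP3. They also included P2ry1 (-0.49), Gnaq (-0.27), Gna11 (-0.22), Impa1 (-0.3) and Itpk1 (-0.2), whose products act before or after those steps. The IP3 phosphatase gene Inpp5a did not pass (0.12, adjusted p = 0.14). Inpp1, an inositol phosphate phosphatase gene, rose from 4.34 ± 0.495 to 9.57 ± 2.53 FPKM (0.96, adjusted p = 0.0071), and its KO values of 6.80, 10.2 and 11.8 were highest in the acinar-rich libraries.

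Among the other pumps and exchangers, 1 of 5 tested genes fell and 1 rose, 40.0% called beside 39.9% of all tested rows. Both were plasma membrane pumps like Atp2b1: Atp2b2 fell from 6.68, 6.23 and 6.50 FPKM in WT to 4.71, 3.43 and 4.11 in KO (-0.56, adjusted p = 0.0064) and Atp2b4 rose from 7.91 ± 0.146 to 11.5 ± 1.39 FPKM (0.48, 0.0062). The call of Atp2b4 was lost under both equal-sum scalings (adjusted p = 0.2 and 0.087). The 3 plasma membrane pump genes that were tested therefore split, with Atp2b1 and Atp2b4 higher and Atp2b2 lower. Atp2a1, the muscle SERCA gene, and Pln, the SERCA inhibitor of heart, were at most 0.0432 and 0.0371 FPKM.

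Of 12 tested genes of store-operated entry and Trp channels, 5 rose and 0 fell, 41.7% against 39.9% of all rows (median 0.16). Under equal non-acinar sums Inpp1 was the only pathway gene called higher, so these 5 rises lost their calls. The 5 were Stim2, Trpc1, Trpm4, Trpm7 (0.39) and Trpv2 (0.53). Trpv2 was at 1.41, 1.88 and 0.92 FPKM in KO, and the part of immune RNA in its rise was not tested. Stim2, the sensor that responds to small falls in store calcium, rose from 8.84 ± 0.295 to 12.8 ± 0.970 FPKM (0.48, adjusted p = 0.0029; 0.1 under the scaling to equal non-acinar sums), and the ratio of Stim1 to Stim2 went from 3.73 ± 0.198 to 2.42 ± 0.298 with no overlap (exact permutation p = 0.1). Trpm4, the close relative of Trpm5, rose from 2.98 ± 0.257 to 4.34 ± 0.570 FPKM (0.42, adjusted p = 0.017), and lost its call in KO replicate 1 alone (0.28, 0.099), with the acinar covariate (0.30, 0.08), under equal non-acinar sums (0.14) and without WT replicate 1 (0.069) or WT replicate 3 (0.06). Trpm4 stood at 0.0919 ± 0.00745 of the Trpm5 level in WT and 0.183 ± 0.0461 in KO, with no overlap. Trpc1 rose from 10.7 ± 0.370 to 13.2 ± 0.666 FPKM (0.27, adjusted p = 0.013), but missed without WT replicate 3 (0.06) and under both equal-sum scalings (0.62 and 0.25).

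Genes of the release channels' partners, the store lumen and mitochondrial calcium transport were mostly not called. The shares called were 7.69%, 31.2% and 25.0%, beside 39.9% of all tested rows. Of 13 tested release channel and regulator genes, 1 fell, Tmco1, an endoplasmic reticulum membrane protein gene, from 13.2 ± 0.218 to 11.2 ± 0.965 FPKM (adjusted p = 0.042, lost in 11 of 18 alternatives). Of 16 luminal and junctional genes 4 fell and 1 rose. The junctophilin gene Jph3, whose product ties the store to the plasma membrane, fell from 7.19, 7.13 and 7.55 FPKM in WT to 4.49, 3.57 and 3.40 in KO (-0.79, adjusted p = 0.0017). Calu and Asph, which encode a calcium-binding luminal protein and a hydroxylase of the reticulum, fell by 0.45 and 0.44 on the log2 scale (adjusted p = 0.0085 and 0.013), Asph not without WT replicate 1 or 3 (0.055 and 0.056) or in KO replicate 1 alone (0.067). The chaperone gene Hsp90b1 rose from 829.0 ± 58.7 to 1178 ± 137 FPKM (0.50, adjusted p = 0.023), but missed without any 1 WT library (0.065, 0.092 and 0.1). The main store buffer gene Calr was at 957.0, 728.0 and 891.0 FPKM in WT and 792.0, 788.0 and 956.0 in KO, overlapping. Of 12 mitochondrial calcium transport genes 1 fell and 2 rose. The uniporter gene Mcu was at 4.69 ± 0.117 and 6.20 ± 0.778 FPKM (log2 difference 0.33, adjusted p = 0.027). Slc8b1, whose product carries calcium out of mitochondria, was at 1.12 ± 0.0568 and 2.12 ± 0.663 (0.53, 0.037). Mcur1 was at 12.8 ± 0.248 and 11.1 ± 0.174 (-0.19, 0.024). Each lost its call when any 1 WT library was left out (adjusted p of 0.074 to 0.11). Each also missed with the acinar covariate (0.12, 0.18 and 0.061) and under both equal-sum scalings.

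**Figure D5:**
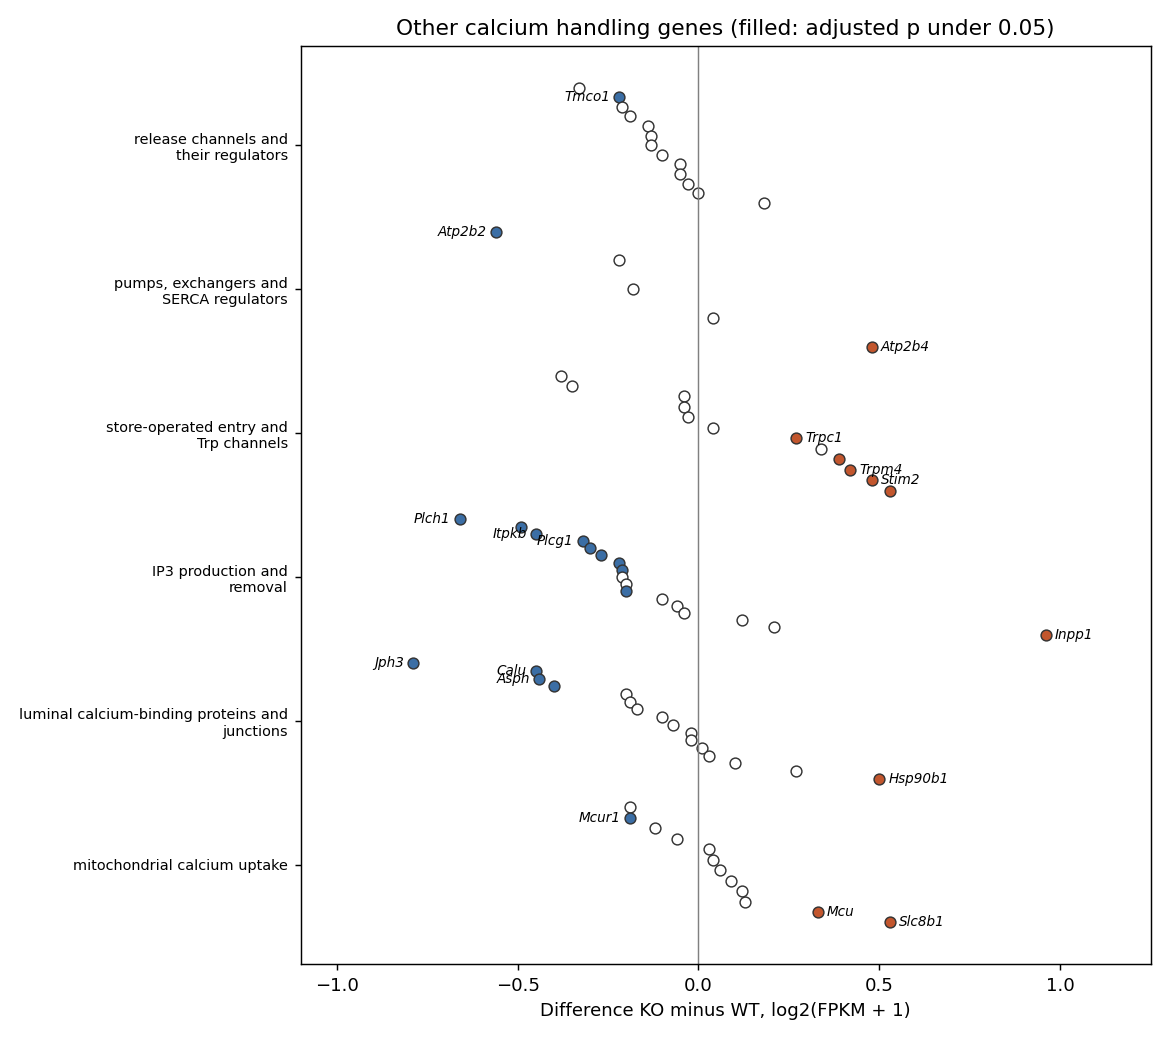
Difference between KO and WT on the log2(FPKM + 1) scale (horizontal axis) for the 75 tested genes of 6 role lists (rows), with blue for lower, orange for higher and open circles for genes that did not pass. Genes of the IP3 list lay mostly to the left (9 lower, 1 higher). The called genes of store-operated entry and Trp channels lay to the right (5 higher, 0 lower).

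Many other genes shared the profiles of the 4 that passed. Measured as the root mean square distance over the 6 libraries between log2(FPKM + 1) values set to their WT mean, the nearest rows to Atp2b1 were Traf3 (0.019) and Pfkfb2 (0.02), and 350 rows lay within 0.1. The nearest to Itpr3 were Trmt6 (0.021) and 4933404O12Rik (0.022), with 1165 rows within 0.1. Orai1 was nearest to Atg2a (0.046) and Asb6 (0.051), and Trpm5 to Rnf130 (0.018) and Gstz1 (0.029).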

How the data were processed

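RNA sequencing of islets gave 1 table per library of gene symbols and values. TopHat2 2.0.8b, Cuffdiff 2.1.1 and mm10 are named in the submitters' processing notes, while annotation, strand setting and scaling were not given in these sources. The files name no unit. What the authors deposited was read as FPKM, which Cuffdiff writes, with sums of 416935 to 1056344 per library, and was not rescaled. Median-of-ratios factors of these values were 0.9952 to 1.005, so on that measure the libraries were already level. Rows whose mean over the 6 libraries was 1 FPKM or more went, as log2(FPKM + 1), into limma (eBayes with trend, two-sided, group only, 4 residual degrees of freedom) and Benjamini-Hochberg adjustment over all 11669 rows at 0.05. Gene positions came from GENCODE M21 (GRCm38), upstream sequence from RefSeq (GRCm38.p6). Itpr1 and Atp2a2 had no RefSeq window.

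The members and gene lists were chosen with earlier results of these data known. Named pathway genes were, per list, the up to 3 called genes of smallest p in each direction. Ryr1, Ryr3, Atp2a1, Pln, Calr, Orai2 and Orai3 were named beside members outside this rule. P2ry1, Gnaq, Gna11, Impa1, Itpk1, Inpp5a, Trpm7 and Trpv2 were also named outside it, to show what their lists held. Genes nearest in profile were the 2 of smallest distance for each called member. Groups came from sample titles. The fits were tested on simulated data. Alternatives were other scalings, filters, pseudocount (0.1), priors, weights, model terms and libraries left out. One was added after seeing the data: equal sums outside acinar and insulin genes. The fits ran in limma 3.58.1 under R 4.3.3. The files list Mcu, Slc8b1 and Mcur1 under older symbols. One immune marker gene is not reported here and was left out of the immune sums.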

Additional observations from a re-analysis of the deposited data

How the results depend on the processing

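Over all rows, 2368 were called higher and 2289 lower, but 634 and 1332 once non-acinar sums were made equal, and 1048 and 1387 when the insulin genes were left out of those sums too. The acinar covariate gave 1226 lower and KO replicate 1 alone 1267. Leaving out 1 library gave 1100 to 2837 lower (1100, 1494 and 1110 without WT replicate 1, 2 and 3) and 1381 to 2890 higher (1381 and 1397 without WT replicate 1 and 3). Of the 10 genes, 1 was lower in place of 2 under both equal-sum scalings, the acinar covariate and KO replicate 1 alone, and 1 to 4 with a library left out (4 without KO replicate 1, otherwise 1). The count of 2 higher became 1 with equal sums outside the acinar list (Atp2b1 lost) and 1 with the filter set to 5 FPKM (Orai1 not tested), and stayed at 2 with any library left out. Of the pathway genes (16 lower, 10 higher), the 2 equal-sum scalings called 8 and 7 lower and 1 and 4 higher, the acinar covariate 9 and 5, KO replicate 1 alone 6 and 6, and leaving out a library 5 to 21 and 3 to 10.

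Itpr1 ranged from -0.29 to -0.12 over libraries left out, Atp2a3 from -0.25 to -0.17 (-0.23 with array weights, called), Itpr3 from -0.31 to -0.28, Atp2b1 from 0.53 to 0.57, Orai1 from 0.55 to 0.68 and Trpm5 from -0.54 to -0.33. Atp2a2 was called only in KO replicate 1 alone (0.29). Atp2b1 was 0.37 with equal sums outside the acinar list. Trpm5 was not called under either equal-sum scaling (-0.59 and -0.50), the covariate (-0.22) or KO replicate 1 alone (-0.15). The causes were not tested. No direction reversed among the called genes of the 10.

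Whether shared replicate numbers pair the samples is not given in the sources used here. Deviations of same-numbered libraries correlated at -0.206, -0.0885 and 0.0276, and those of unlike-numbered ones at -0.158 to 0.199. Deviations within a group depend on each other, so these correlations cannot decide it. With the replicate block Itpr3 was -0.29 (adjusted p = 0.026), Atp2b1 0.55 (0.0063), Orai1 0.62 (0.017) and Trpm5 -0.41 (0.038), so these calls held. Depth is unknown, which limits Ryr2 and other genes near 0 most.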
